A study of Mus musculus with 19 samples.

Results

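The 36 genes described here code for the machinery that starts, builds and closes the autophagosome and fuses it with the lysosome, together with 3 transcription factors of the pathway and a mitophagy receptor. They are a list of symbols looked up in the count table, and the rule uses no measured value. Of the 24421 genes in the count table, all 36 were found, and all 36 passed the filter on low counts that left 13293 genes for testing. By role they comprised 4 genes of the ULK1 kinase complex, 6 of the class III PI3-kinase complexes, 7 of phagophore growth and lipid transfer, 11 of the conjugation and ATG4 protease system, 4 of autophagosome-lysosome fusion, 3 transcription factors and the receptor gene Bnip3.

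RNA was sequenced from whole mouse liver in 19 libraries, in a 2 by 2 design of antisense oligonucleotide (ASO, a short synthetic strand that lowers its target RNA) and feeding state. The mice were on a purified normal diet and received control ASO or an ASO against Plin5, which codes for the lipid droplet coat protein perilipin 5, in 2 injections per week for 3 weeks. They were fasted overnight, and the re-fed groups then had food for 4 h. The groups were fasted control ASO (n = 4, numbered 1, 3, 4 and 5), fasted PLIN5 ASO (n = 5), re-fed control ASO (n = 5) and re-fed PLIN5 ASO (n = 5). Every group thus carried an ASO and had been fasted, and no group was untreated or fed throughout. Strain, sex and age are not given in the labels, and the labels name no cell type as the target of the ASO. The labels do not say that the libraries of a group came from separate animals, so p-values measure the spread between these libraries.

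In macroautophagy, the ULK1 kinase complex starts the process and switches on a lipid kinase complex built on Pik3c3 and Becn1, which marks the membrane where the phagophore will form. ATG9 vesicles, the lipid transfer proteins ATG2A and ATG2B and the WIPI proteins let that membrane grow, while 2 ubiquitin-like conjugation systems attach ATG8 proteins to it. The closed vesicle fuses with the lysosome through the SNARE proteins STX17, SNAP29 and VAMP8. In the liver this route supplies amino acids and lipids during fasting. Insulin and amino acids restrain it through mTORC1, largely by phosphorylation of ULK1 and of the transcription factor TFEB, so the messenger levels measured here are one layer of that control.

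The stretches around the start sites are shown because 5 of the genes carry the palindrome CACGTG (the E-box core, bound by basic helix-loop-helix factors, among them the TFEB family and the circadian factors CLOCK and ARNTL), and the livers differed in their clock genes, as described further on. The motif and the genes shown were chosen after their values were seen. RefSeq promoters (GRCm38.p6, 250 bases before to 50 after the start) were matched by symbol for 29 of the 36 genes. Each line gives the E-box in capitals with 10 bases on each side, 5′ to 3′ on the strand of the gene.
Atg14, chr14:47568420-47568445, minus strand: aacaaaatccCACGTGactggccctg
Atg3, chr16:45158725-45158750, plus strand: ctccttttgtCACGTGtcctgggaga
Atg3, chr16:45158748-45158773, plus strand: agagtcgagtCACGTGaggccttagg
Atg5, chr10:44268315-44268340, plus strand: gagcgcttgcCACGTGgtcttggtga
Atg7, chr6:114670954-114670979, plus strand: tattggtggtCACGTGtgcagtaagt
Bnip3, chr7:138909599-138909624, minus strand: gcacgcgccgCACGTGccacacgctc
The core was in 5 of the 29 matched genes (17.2%) and in 8.09% of all 27025 genes with a promoter of the same length in the table. In Atg14 it lies across the start site of the RefSeq promoter, and in the other 4 before that site. The RefSeq starts shown for Atg7 and Atg14 lie inside the annotated genes, which begin at chr6:114643097 and chr14:47570649. None of those 5 genes passed the test in any comparison. The longer palindromic CLEAR element of lysosomal genes, which contains the same core, was in 0 of the 29 and in 0.37% of all genes. The forkhead motif GTAAACA was in 0 of the 29 and in 4.05% of all. The letters ACGTG, the core bound by hypoxia factors and contained in every CACGTG, were in 12 of the 29 (41.4%) and in 21.8% of all. Motifs were searched on both strands, and a match describes letters in the window, not a bound site. The shares of all genes include genes that were not tested here and were not matched for expression or G+C content. They are given as a description only.

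Ulk1, which had the smallest p of the 36 for re-feeding under either ASO, had none of these motifs in its window. Its 250 bases before the start (chr5:110810082-110810331, minus strand, 67.2% G+C) are shown beside those of Bnip3 (chr7:138909507-138909756, minus strand, 72.4% G+C), whose E-box is in capitals. Bnip3 was far lower in livers with a shifted clock than in the rest of their groups.
Ulk1: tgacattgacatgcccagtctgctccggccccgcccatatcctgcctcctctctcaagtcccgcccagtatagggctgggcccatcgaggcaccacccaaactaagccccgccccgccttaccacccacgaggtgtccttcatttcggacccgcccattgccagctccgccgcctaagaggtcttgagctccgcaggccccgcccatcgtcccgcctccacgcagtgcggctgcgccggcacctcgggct
Bnip3: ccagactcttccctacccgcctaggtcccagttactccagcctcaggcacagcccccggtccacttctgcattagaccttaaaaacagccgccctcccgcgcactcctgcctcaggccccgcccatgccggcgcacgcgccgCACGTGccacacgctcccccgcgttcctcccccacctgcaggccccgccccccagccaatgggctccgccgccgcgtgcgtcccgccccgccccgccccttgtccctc

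Total counts ran from 24942147 to 33949977 per library in 18 libraries and reached 66862784 in re-fed PLIN5 ASO 5. Plin5 itself was at 36.9 ± 1.52 CPM (counts scaled to a common library size; SD, n = 4) in fasted control ASO and 9.13 ± 3.44 (SD, n = 5) in fasted PLIN5 ASO livers, and at 37.5 ± 10.8 and 7.74 ± 3.20 (SD, n = 5 each) in the re-fed ones, in the direction of the labels. Fasted PLIN5 ASO 3 and 5 and re-fed control ASO 3 and 5 stood apart in the clock genes: Arntl was at 14.6 to 45.0 CPM in these 4 libraries and at 0.566 to 4.87 in the other 15, and Dbp at 1.82 to 18.9 against 36.3 to 160. They are called the clock-shifted libraries here. Where a named gene lost its call without them, values with and without them are given. The same was done for log2 fold changes of 0.2 or more quoted in the text that moved by over 1.5 times. Changes that are not quoted can move as well. Fasted control ASO 3 and 4 differed less from each other than any other pair within a group, with a chi-square divided by its degrees of freedom of 3.23, where the next closest of 36 pairs had 18.7. That is still above counting noise, but this cannot show that they came from separate animals. They were kept as 2 samples, as labelled, and joined in an alternative. The 8 hepatocyte markers were high in every library, with summed levels of 84758 to 153161 CPM.

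Length-corrected levels (FPKM, fragments scaled to transcript length and library size, means over the 19 libraries) spread the genes over more than 2 orders of magnitude. Vamp8, the lysosomal SNARE, was highest at 213 FPKM, followed by Bnip3 at 129, Atg3, the E2-like enzyme that lipidates ATG8 proteins, at 51.5, and Vmp1, an endoplasmic reticulum scramblase, at 41.2. Wdr45 (28.6), Becn1 (24.6), Atg5 (21.1), Atg9a (17.9), Ulk1 (14.96) and Wipi2 (14.6) came next. The low end held Tfeb at 4.14 FPKM, Atg10 at 2.56, Atg16l2 at 2.30 and Epg5 at 2.02. Atg4a was lowest at 0.765 FPKM, with as few as 7 counts in a library. FPKM within a group varied least for Becn1 (coefficient of variation 4.54%) and Atg9a (6.42%), and most for Atg16l2 (32.3%), Atg4a (31.5%), Bnip3 (28.3%) and Vmp1 (23.2%).

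**Figure D1:**
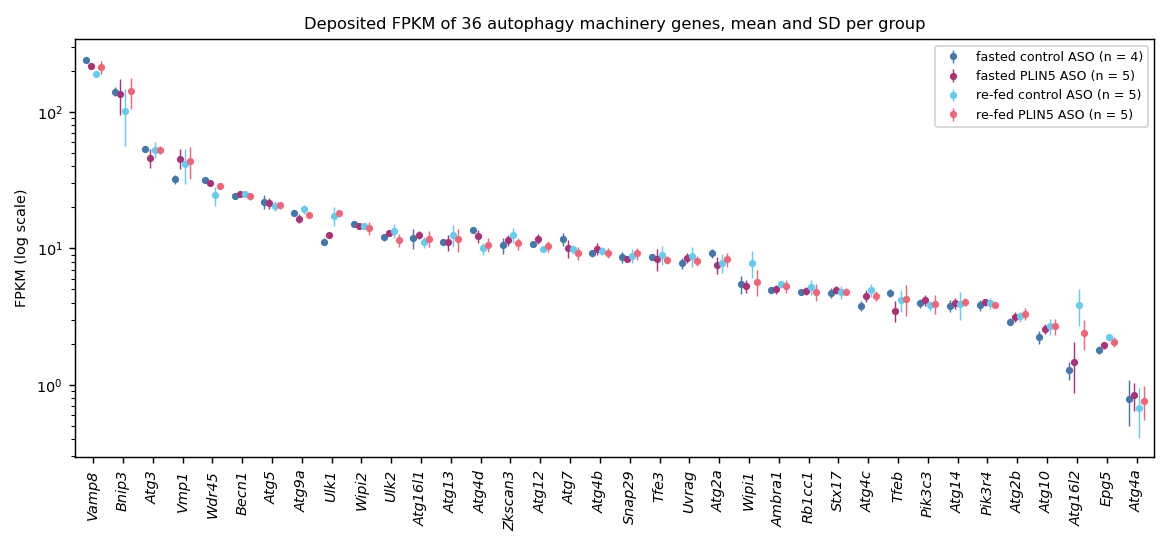
Mean level and SD of each of the 36 genes in the 4 groups (colours, n = 4 or 5), in deposited FPKM on a log axis, ordered by the mean over all libraries. Vamp8 at a mean of 213 and Bnip3 at 129 head the order and Atg4a at 0.765 ends it, and within most genes the 4 groups lie on top of each other.

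PLIN5 ASO against control ASO in fasted liver asks whether lowering Plin5 went with a change in these messengers in the state in which autophagy is active. None of the 36 genes passed edgeR's quasi-likelihood test at an adjusted p of 0.05, beside 1.17% of all genes tested (156 of 13293), and a count of 0 of 36 is close to that share. At an unadjusted p under 0.05 there were 7 genes, beside 15.1% of all genes, and DESeq2 and limma called 0 as well. The median log2 fold change was 0.01 for the 36 genes and 0.01 for all genes, and the median size of change was 0.09 and 0.14. Single genes ran from -0.43 (Tfeb) to 0.51 (Vmp1). For 31 of the 36, the 95% interval lay within a 1.5-fold change either way. The other 5 were Tfeb, Atg4a, Bnip3, Vmp1 and Atg16l2, for which the interval reached past 1.5-fold.

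Tfeb, the transcription factor that drives lysosomal and autophagy genes, had the smallest p. It was at 12.1, 11.6, 10.8 and 10.9 CPM in fasted control ASO livers and at 10.02, 9.31, 6.95, 9.23 and 6.87 in fasted PLIN5 ASO livers. Every PLIN5 ASO liver was below every control, and the lowest values were those of the clock-shifted livers 3 and 5. Plin5 itself was at 12.6 and 13.1 CPM in livers 3 and 5 and at 6.14 to 7.69 in the other fasted PLIN5 ASO livers. Whether the level of the target goes with that of Tfeb was not tested. The log2 fold change of Tfeb was -0.43 (SE 0.16, adjusted p = 0.213 by edgeR), and -0.26 (adjusted p = 0.507, range over alternatives 0.0535 to 0.507) without the 4 clock-shifted libraries. The 2 groups did not overlap for 4 genes, Ulk1 and Vmp1 (higher under PLIN5 ASO) and Vamp8 and Tfeb (lower), beside 7.13% of all genes.

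Ulk1, the initiating kinase, ran from 61.1 to 68.0 CPM under control and from 69.1 to 72.3 under PLIN5 ASO (log2 fold change 0.14, SE 0.085, adjusted p = 0.455). Vmp1 ran from 89.4 to 106 and from 113 to 158 CPM (0.51, adjusted p = 0.227), with the highest values again in the clock-shifted livers. The locus of Vmp1 holds Mir21a on the same strand, over 92 bases. Atg7, the E1-like enzyme of both conjugation systems, was at 53.9, 46.6, 46.6 and 43.2 CPM against 34.6, 45.7, 38.7, 44.3 and 42.8 (-0.21, adjusted p = 0.263), so the groups overlapped. Becn1, the scaffold of the lipid kinase complex, was at 39.6 ± 1.80 CPM (SD, n = 4) and 38.9 ± 2.08 (SD, n = 5), with a log2 fold change of -0.03 and a 95% interval of -0.16 to 0.11. All 6 genes of the class III PI3-kinase complexes lay between -0.03 and 0.11 on the log2 scale here. Beside these values, the 10 macrophage markers (all 10 in the table) summed to 132 to 158 CPM in fasted control ASO and 150 to 386 in fasted PLIN5 ASO livers, and the 8 stellate and fibroblast markers (all 8 in the table) to 129 to 164 and 167 to 258. The neutrophil and monocyte markers (7 of 8 in the table) summed to 16.3 to 18.8 and 19.1 to 43.2 CPM. The stellate and the neutrophil sums did not overlap between the groups, and the macrophage sums did. Their part in the comparison was not tested.

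In re-fed liver the same contrast gave 0 of 36 genes by edgeR, beside 1.38% of all genes (183). An unadjusted p under 0.05 was reached by 5 genes, beside 19% of all, and DESeq2 and limma called 0. The median log2 fold change was 0.00 for the 36 and -0.01 for all genes, with single genes from -0.71 (Atg16l2) to 0.52 (Bnip3). The 95% interval lay within 1.5-fold for 32 genes, the exceptions being Atg4a, Bnip3, Wipi1 and Atg16l2. No gene had groups that did not overlap, beside 4.22% of all genes. Log2 fold changes fell with transcript length in this comparison, with a Spearman rho of -0.318 over all genes and -0.411 over the 36, given as a description.

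Atg16l2, a paralog of the ATG16L1 scaffold that places the lipidation reaction on membranes, had the smallest p. In CPM, it was at 9.64, 5.50, 9.25, 12.7 and 14.5 in livers re-fed under control ASO and at 5.65, 5.87, 7.74, 8.16 and 4.31 in re-fed PLIN5 ASO livers. The control values were mostly the higher ones, but control liver 2 lay among those of the PLIN5 ASO group, and the log2 fold change of -0.71 (SE 0.24) did not pass (adjusted p = 0.127). Wdr45, a WIPI-family protein of phagophore growth, stood at 38.5 ± 5.74 CPM against 45.2 ± 2.45 (SD, n = 5 each), a log2 fold change of 0.23 with an adjusted p of 0.14, and of 0.10 (0.528) without the clock-shifted libraries. Wdr45 was the one gene to pass when a library was left out, namely re-fed control ASO 4, which gave 1 gene in place of 0. Ulk2, the paralog of Ulk1, was at 83.5 ± 9.99 against 71.3 ± 7.14 CPM (SD, n = 5 each), a log2 fold change of -0.23 (adjusted p = 0.159), and Wipi1, which binds the lipid made by PIK3C3, was at 16.6 ± 3.73 against 12.97 ± 2.27 CPM (-0.36, adjusted p = 0.192). Without the clock-shifted libraries Ulk2 was at -0.10 (adjusted p = 0.609) and Wipi1 at -0.13 (0.73), and with the trend on transcript length taken out Ulk2 was at -0.14 (0.438). Tfeb was at 11.04, 11.4, 8.81, 10.1 and 7.54 CPM against 9.41, 14.7, 9.70, 7.94 and 9.62 (0.07, adjusted p = 0.852), and the groups overlapped. The difference between its 2 ASO effects, tested as an interaction, was 0.49 on the log2 scale (adjusted p = 0.31), and 0.18 (0.827) without the clock-shifted libraries.

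**Figure D2:**
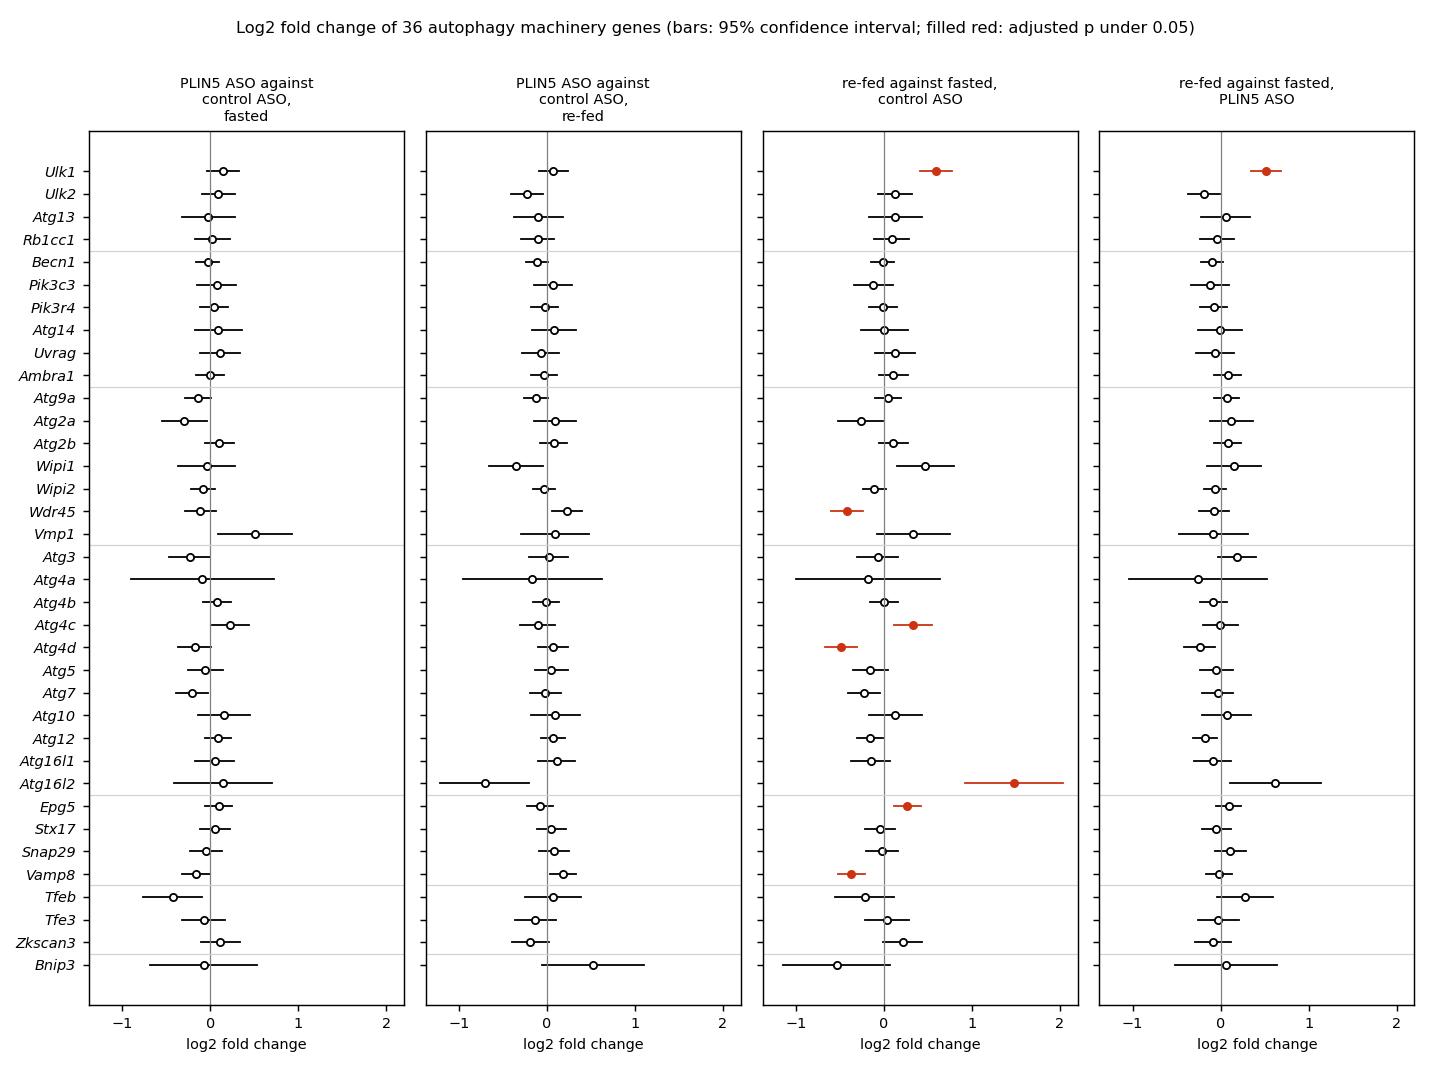
Log2 fold change of each gene, with its 95% interval, in the 4 pairwise comparisons, ordered by role. Filled red points passed the test: none in either ASO comparison, 7 under control ASO when re-fed and 1, Ulk1, under PLIN5 ASO when re-fed, and the widest intervals belong to Atg4a.

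Re-feeding against fasting under control ASO asks how the machinery's messengers move when food returns. Of the 36 genes, 7 passed (19.4%), beside 13.2% of all genes (1759 of 13293), and 11 had an unadjusted p under 0.05, beside 28.8% of all. The 7 calls went both ways. Ulk1, Atg16l2, Atg4c and Epg5 rose, 4 of 36 beside 6.42% of all genes, and Atg4d, Wdr45 and Vamp8 fell, 3 of 36 beside 6.82%. The median log2 fold change was 0.00 for the 36 and 0.03 for all genes, and the median size of change 0.14 and 0.20. The ULK1 complex had 1 of 4 called, the lipid kinase complexes 0 of 6, phagophore growth 1 of 7, conjugation 3 of 11, fusion 2 of 4, and the transcription factors and Bnip3 none.

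Ulk1 (chromosome 5, 110784488 to 110810097, GRCm38) was at 61.1, 62.2, 68.0 and 67.4 CPM in fasted control ASO livers and at 103, 87.8, 81.7, 119 and 94.2 in re-fed ones. Every re-fed liver was above every fasted one. The log2 fold change was 0.59 (SE 0.086, 95% interval 0.41 to 0.77, adjusted p = 0.000274), a 1.504-fold rise. The other members of the complex, Ulk2, the scaffold Rb1cc1 (FIP200) and the adaptor Atg13, had log2 fold changes of 0.13, 0.09 and 0.13 and did not pass. The count ratio of Ulk1 to Ulk2 had a median of 0.845 (0.758 to 0.949) in fasted control ASO livers. In re-fed ones it was 1.14 (0.887 to 1.54), so the ranges overlapped. Ulk2 was at 92.2 and 96.2 CPM in the clock-shifted re-fed control ASO livers and at 74.3 to 77.6 in the rest of that group.

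Among the conjugation genes, Atg16l2 rose most. It was at 3.34, 3.12, 4.53 and 3.82 CPM in fasted and at 9.64, 5.50, 9.25, 12.7 and 14.5 in re-fed control ASO livers, with no overlap. The log2 fold change was 1.48 (SE 0.27, adjusted p = 0.00141), or 2.79-fold. Its abundant paralog Atg16l1 had a log2 fold change of -0.15 (adjusted p = 0.386), so the ratio of Atg16l2 to Atg16l1 counts went from a median of 0.0895 to 0.281. Atg16l2 is a low gene in whole liver, where more cells of a type and more RNA per cell cannot be told apart. The 10 macrophage markers summed to 132 to 158 CPM in fasted and 127 to 204 in re-fed control ASO livers, the 8 stellate and fibroblast markers to 129 to 164 and 167 to 195, and the 7 lymphocyte markers to 3.18 to 4.04 and 2.04 to 3.12. Their part in the result was not tested.

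The ATG4 proteases, which prime ATG8 proteins and strip them from membranes, split in direction. Atg4d was at 37.8, 40.8, 40.0 and 39.0 CPM in fasted and at 24.8, 29.8, 27.3, 31.4 and 27.5 in re-fed control ASO livers. Every re-fed liver was below every fasted one, and the log2 fold change was -0.48 (SE 0.087, adjusted p = 0.0014). Atg4d shares 1405 bases with Kri1 on the opposite strand, and the labels name no strand setting for the counting. Kri1, at a mean of 8.24 CPM, had a log2 fold change of -0.01 (SE 0.13). Atg4c was at 10.6, 10.97, 12.2 and 12.1 CPM in fasted and at 13.2, 12.0, 14.8, 15.9 and 16.1 in re-fed livers, with re-fed liver 2 inside the fasted range, and rose by 0.33 (SE 0.10, adjusted p = 0.0364). Atg4b, the main protease of the family, was at 0.01 (adjusted p = 0.971). The ratio of Atg4d to Atg4c counts was 3.23 to 3.72 in fasted and 1.70 to 2.48 in re-fed control ASO livers.

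The call on Atg4c depended on single libraries, while its log2 fold change stayed between 0.28 and 0.39 when single libraries were left out and was 0.26 without the clock-shifted ones. Leaving out fasted control liver 1, 3, 4 or 5 gave an adjusted p of 0.104, 0.101, 0.0539 or 0.0547, and leaving out re-fed control liver 3, 4 or 5 gave 0.0701, 0.0721 or 0.0937. Leaving out all 4 clock-shifted libraries gave an adjusted p of 0.164, the highest over the alternatives, which began at 0.0146. The call was also lost with fasted control ASO 3 and 4 joined as 1 sample, with no filter on low counts and with the compared groups fitted alone. Among the other conjugation genes, Atg12, a ubiquitin-like modifier, had groups that did not overlap, at 27.5 to 27.9 CPM fasted and 23.9 to 26.5 re-fed (log2 fold change -0.16, adjusted p = 0.135). Atg7 had a log2 fold change of -0.22 (adjusted p = 0.0963), and Atg5, Atg10 and Atg3 lay between -0.16 and 0.13 with adjusted p-values of 0.291 or more.

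Wdr45 was the one phagophore gene to fall. It was at 50.7, 49.3, 51.7 and 54.1 CPM in fasted and at 41.0, 38.8, 33.2, 46.6 and 32.8 in re-fed control ASO livers. The groups did not overlap, and the lowest re-fed values were those of the clock-shifted livers 3 and 5. The log2 fold change was -0.42 (SE 0.086, adjusted p = 0.00339), and -0.29 (adjusted p = 0.027, range over alternatives 0.00014 to 0.027) without the 4 clock-shifted libraries. Wipi1 lay just outside the threshold, at an adjusted p of 0.0502 and a log2 fold change of 0.47 (SE 0.16). It was at 9.94, 12.3, 12.5 and 13.1 CPM in fasted and at 15.8, 11.7, 21.2, 14.98 and 19.3 in re-fed livers, the highest again in clock-shifted livers. Without those libraries its log2 fold change was 0.24 (adjusted p = 0.365, range 0.0128 to 0.365). It passed in 8 alternatives, among them without re-fed control ASO 2 (adjusted p = 0.014) or 4 (0.0478) and without a library of another group, fasted PLIN5 ASO 1 (0.048) or re-fed PLIN5 ASO 2 (0.0424) or 3 (0.0429). Atg9a, the lipid scramblase of the seed vesicles, and Wipi2, which recruits ATG16L1, had log2 fold changes of 0.05 and -0.11 and did not pass, nor did the lipid transfer genes Atg2a (-0.26, adjusted p = 0.161, and -0.16 without the clock-shifted libraries) and Atg2b (0.11).

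Of the fusion genes, Vamp8 was at 160, 169, 162 and 154 CPM in fasted and at 118, 131, 129, 130 and 118 in re-fed control ASO livers. All 5 re-fed values lay below the 4 fasted ones, and the log2 fold change was -0.37 (SE 0.076, adjusted p = 0.00344). Its partners in the SNARE complex, Stx17 and Snap29, were at -0.04 and -0.02 and did not pass. Epg5, a tether between autophagosome and lysosome, was at 19.5, 19.2, 17.6 and 20.4 CPM in fasted and at 23.4, 22.1, 24.5, 20.8 and 24.5 in re-fed livers, again without overlap. It rose by 0.27 on the log2 scale (SE 0.074, adjusted p = 0.0216).

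That rise of Epg5 was small, and the call was lost in 7 of 31 alternatives. Without fasted control ASO 3 or 4 the adjusted p was 0.0554 and 0.0846, and without re-fed control ASO 3 or 5 it was 0.0555 and 0.0583. It was 0.155 without all 4 clock-shifted libraries, at a log2 fold change of 0.21 (range over alternatives 0.012 to 0.34). The call was also lost with fasted control ASO 3 and 4 joined as 1 sample. The transcript of Epg5, at 9660 nt, is the longest of the 36, and log2 fold changes in this comparison rose with transcript length over all genes (Spearman rho 0.221 over genes, which do not count as replicates). With that trend taken out, Epg5 had a log2 fold change of 0.11 (adjusted p = 0.34). Groups that did not overlap in re-feeding under control ASO numbered 7, namely those of Ulk1, Atg16l2, Epg5, Wdr45, Atg4d, Atg12 and Vamp8, beside 16.3% of all genes.

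**Figure D3:**
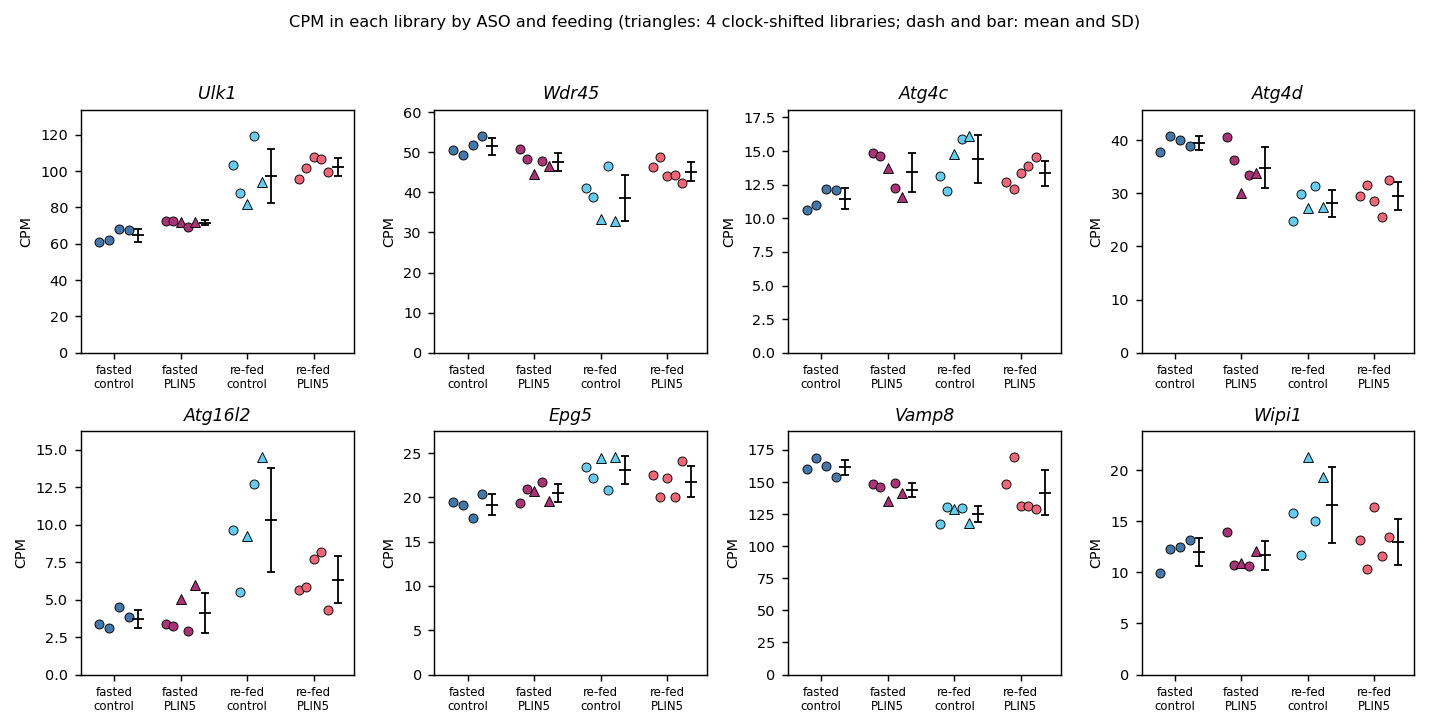
CPM of the 7 genes called for re-feeding under control ASO and of Wipi1, just outside the threshold, one panel per gene and one point per library, with group mean and SD beside; triangles mark the 4 clock-shifted libraries. Ulk1 lies at 61.1 to 72.3 in both fasted groups and at 81.7 to 119 in both re-fed groups, whereas Vamp8 falls under control ASO (154 to 169 against 118 to 131) and overlaps under PLIN5 ASO.

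The lipid kinase complexes had no call in any of the 5 comparisons. Becn1 was at 37.0, 40.0, 40.9 and 40.6 CPM in fasted and at 40.6, 39.6, 40.5, 35.6 and 40.0 in re-fed control ASO livers. The log2 fold change was -0.01 with a 95% interval of -0.15 to 0.12. The catalytic subunit gene Pik3c3, the regulatory subunit gene Pik3r4, the alternative partners Atg14 and Uvrag and the regulator Ambra1 lay between -0.12 and 0.12. Ambra1 was at 26.6 ± 1.27 CPM (SD, n = 4) fasted and 28.7 ± 2.12 (SD, n = 5) re-fed (0.11, adjusted p = 0.377). Becn1 shares 3104 bases with Cntd1 on the opposite strand, which was at a mean of 0.211 CPM. Of the transcription factors, Tfeb was at -0.22 (adjusted p = 0.395, and -0.07 without the clock-shifted libraries), Tfe3 at 0.03 (0.884) and Zkscan3, a repressor of autophagy genes, at 0.22 (0.185), from 29.6 ± 3.88 CPM (SD, n = 4) fasted to 34.3 ± 4.37 (SD, n = 5) re-fed, within the spread of its libraries.

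Under PLIN5 ASO, 1 of the 36 genes passed for re-feeding (2.78%), beside 8.64% of all genes (1148). At an unadjusted p under 0.05 there were 5, beside 23.5% of all. The gene was Ulk1, at 72.3, 72.3, 71.9, 69.1 and 71.7 CPM in fasted and at 95.7, 102, 108, 106 and 99.6 in re-fed PLIN5 ASO livers. It rose by 0.52 (SE 0.080, adjusted p = 0.000477), or 1.43-fold, and was the one gene with groups that did not overlap, beside 7.57% of all genes. The Ulk1 to Ulk2 count ratio had a median of 0.892 (0.830 to 0.946) in fasted and 1.48 (1.28 to 1.72) in re-fed livers.

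The other 6 genes called under control ASO did not pass here. Atg16l2 was at 3.36, 3.22, 5.03, 2.91 and 6.002 CPM in fasted and at 5.65, 5.87, 7.74, 8.16 and 4.31 in re-fed PLIN5 ASO livers. The ranges overlapped, with the 2 highest fasted values in the clock-shifted livers, and the log2 fold change was 0.62 (SE 0.25, adjusted p = 0.13). Without the clock-shifted libraries it was 0.99 (adjusted p = 0.025). Atg4d was at 40.5, 36.2, 30.1, 33.5 and 33.9 CPM in fasted and at 29.5, 31.5, 28.5, 25.6 and 32.4 in re-fed livers. In 3 of the 5 re-fed livers it was below every fasted one, and the log2 fold change was -0.24 (SE 0.083, adjusted p = 0.0794). Wdr45 was at -0.08 (adjusted p = 0.611), Epg5 at 0.09 (0.466) and Atg4c at -0.01 (0.983). The 29 genes called in neither comparison lay between -0.26 (Atg4a) and 0.27 (Tfeb), and these 2 were at -0.42 and 0.10 without the clock-shifted libraries.

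Vamp8, which fell under control ASO, was at 148, 146, 136, 149 and 142 CPM in fasted and at 148, 169, 131, 132 and 129 in re-fed PLIN5 ASO livers, and the log2 fold change was -0.02 (95% interval -0.17 to 0.13). The fasted PLIN5 ASO livers lay below the fasted control livers (log2 fold change -0.16, adjusted p = 0.309), and re-fed liver 2 reached the level of fasted controls. The count of 1 gene became 2 without fasted PLIN5 ASO 3 (Atg4d added) or without re-fed PLIN5 ASO 4 (Atg12 added). It became 3 without the clock-shifted libraries, which leave fasted PLIN5 ASO with 3 livers (Ulk1, Atg16l2 and Atg4d).

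A difference in calls between the ASO groups is not a difference in response, and the interaction of ASO and feeding was therefore tested in the same fit. None of the 36 genes passed in edgeR, beside 0.0226% of all genes (3), and 7 had an unadjusted p under 0.05, beside 15% of all. DESeq2 and limma called 0 of the 36. The interaction is the log2 fold change of re-feeding under PLIN5 ASO minus that under control ASO. It was 0.35 for Vamp8 (SE 0.10, 95% interval 0.13 to 0.56, unadjusted p = 0.0036, adjusted p = 0.197), 0.34 for Wdr45 (adjusted p = 0.237), -0.86 for Atg16l2 (0.283) and -0.34 for Atg4c (0.276). Without the clock-shifted libraries it was 0.17 for Wdr45 (adjusted p = 0.613) and -0.33 for Atg16l2 (0.792). For Ulk1 it was -0.07, with a 95% interval of -0.32 to 0.17. For 26 of the 36 genes the interval of the interaction lay within a 1.5-fold change either way. The interaction fell with transcript length, with a Spearman rho of -0.269 over all genes and -0.337 over the 36, given as a description. The longest transcripts of Vamp8, Wdr45, Atg4c and Atg16l2 have 2076, 1609, 3178 and 6459 nt. The control and PLIN5 ASO responses share no library. Of their log2 fold changes, 22 of 36 (61.1%) had the same sign, against 61.1% of all genes.

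**Figure D4:**
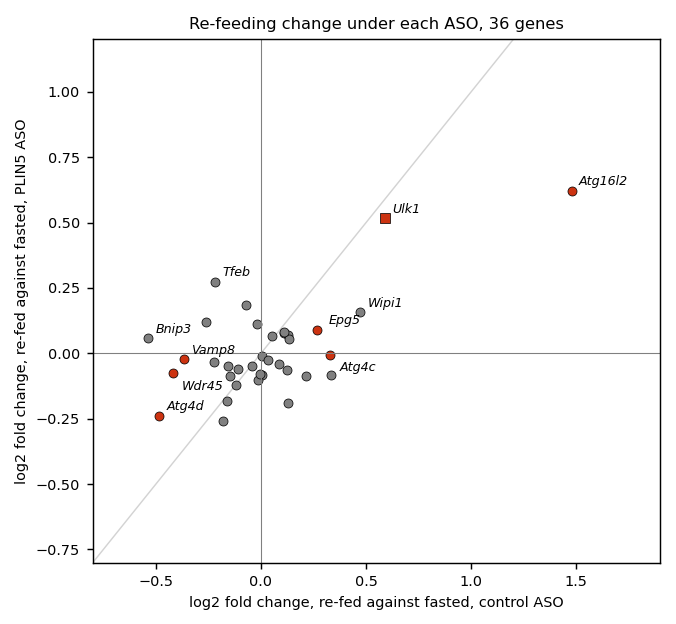
Log2 fold change of re-feeding under control ASO (x) and under PLIN5 ASO (y) for the 36 genes, with the line of equality. Red points were called under control ASO and the square, Ulk1, in both; Ulk1 lies near the line at 0.59 and 0.52, whereas Atg16l2 (1.48 and 0.62) and Vamp8 (-0.37 and -0.02) lie off it, with interactions that did not pass.

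The clock-shifted libraries could be compared with their own groups. In fasted PLIN5 ASO and in re-fed control ASO alike, 8 of the 36 genes were lower in both clock-shifted livers than in the other 3 livers, beside 8.65% of all genes, and 1 was higher, beside 7.85%. The 8 were Atg14, Uvrag, Wdr45, Atg3, Atg16l1, Snap29, Tfeb and Bnip3, and the 1 was Vmp1. Bnip3, a mitophagy receptor of the outer mitochondrial membrane, was at 136 and 187 CPM in the clock-shifted livers of fasted PLIN5 ASO against 261 to 312 in the rest, and at 107 and 75.7 CPM against 216 to 242 in re-fed control ASO. The clock-shifted livers were far below the rest of their groups. Its errors in the group comparisons were wide. PLIN5 against control ASO in re-fed liver gave 0.52 on the log2 scale (SE 0.28, adjusted p = 0.317), and 0.13 without the 4 libraries. Re-feeding under control ASO gave -0.54 (SE 0.29, adjusted p = 0.234 by edgeR), the lowest of the 36, and -0.14 without the 4 libraries.

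Atg3 followed the same order, at 70.7 and 86.4 CPM against 94.1 to 111 in fasted PLIN5 ASO and at 95.5 and 89.3 CPM against 105 to 119 under re-feeding with control ASO. Vmp1 ran the other way, at 151 to 158 against 113 to 142 and at 143 to 173 against 87.3 to 105 CPM. In re-fed PLIN5 ASO livers, none of them among the clock-shifted libraries, Vmp1 reached 165 CPM (liver 2) and 164 (liver 5). Bnip3 was at 168 CPM in liver 4 and 190 in liver 5 of that group. Liver 2 had the highest Arntl (4.87 CPM) and the lowest Dbp (36.3 CPM) of the 15 libraries not called clock-shifted. Dbp was at 91.8 CPM in liver 4 and 101 in liver 5. Of the 8 lower genes, 7 had a promoter in the RefSeq table, and Atg14, Atg3 and Bnip3 were the 3 with an E-box core. The core was in 5 of all 29 matched genes (17.2%). The remaining E-box genes did not have this order in both groups: Atg5 was lower in fasted PLIN5 ASO only, and Atg7 in neither. This describes genes whose values had been seen, and a link to the motif was not tested. The 2 clock-shifted fasted PLIN5 ASO livers had the highest summed macrophage markers of their group, at 386 and 270 CPM in a group range from 150. In re-fed control ASO the clock-shifted livers were at 142 and 192 CPM, within the 127 to 204 of the other 3. Whether clock state or another difference between these livers goes with the values was not tested, and no p-value is given for libraries set apart by their own expression.

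**Figure D5:**
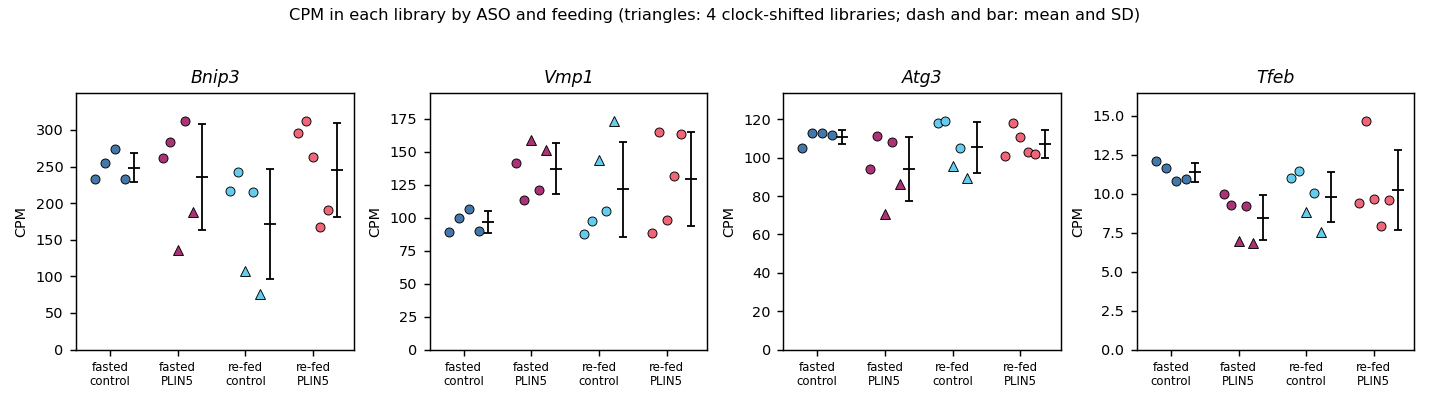
CPM of Bnip3, Vmp1, Atg3 and Tfeb, one point per library in the 4 groups, with group mean and SD beside; triangles mark the clock-shifted livers of fasted PLIN5 ASO and re-fed control ASO, circles all other livers. Bnip3 shows the widest gap, at 75.7 to 107 against 216 to 242 CPM in re-fed control ASO.

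The wider pathway was described with 66 other autophagy genes in 4 lists, of which 62 were in the count table and 61 were tested. By edgeR, 0 of the 61 passed in the fasted ASO comparison (10 at an unadjusted p under 0.05), 0 in the re-fed one (9) and 0 in the interaction (8). DESeq2 called 0, 2 and 0 in the same order, the 2 being Fam134b and Map1lc3b, in a comparison where it called 620 over all genes. With limma on FPKM, 0 were called in each. Re-feeding under control ASO changed 15 of the 61 (5 up, 10 down), beside the 13.2% of all genes (6.42% up and 6.82% down). The counts per list that follow stand beside these same shares, and no list was tested as a set. Among the ATG8 family and cargo receptor genes, 4 of 13 fell and none rose, with Gabarapl1 at -0.83 (SE 0.14, adjusted p = 0.000623) and Map1lc3a, which codes for an LC3 protein, at -0.57 (adjusted p = 0.00292). Among the tethering and fusion genes 2 of 13 rose and 2 fell, Stx7, an endosomal SNARE, rising by 0.49 (adjusted p = 0.00138). Tmem41b, a scramblase that works with VMP1, rose by 0.54 (adjusted p = 0.00447), 1 of 2 that rose and 1 that fell among 11 other initiation and membrane genes. Of 24 upstream kinases and transcription factors 1 rose and 3 fell.

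Under PLIN5 ASO, 4 of the 61 passed by edgeR, beside 8.64% of all genes, while DESeq2 called 12 of 62 and limma on FPKM 4 of 60. The 8.64% is edgeR's share and is no background for the counts of the other tools. Over all genes, edgeR called 1148, and alternatives other than single left-out libraries called 793 to 1504. Tmem41b (0.36, adjusted p = 0.0445) and Vps16, a subunit of the HOPS tether (0.24, adjusted p = 0.0389), rose, and the SNARE gene Ykt6 (-0.22, adjusted p = 0.0323) and the HOPS subunit gene Vps41 (-0.24, adjusted p = 0.0434) fell. Without the clock-shifted libraries Tmem41b (0.28, adjusted p = 0.129) and Vps41 (-0.27, adjusted p = 0.0603) no longer passed. Gabarapl1 and Map1lc3a were at -0.38 and -0.32 (adjusted p = 0.0716 and 0.0709 by edgeR, 0.0336 and 0.0407 by DESeq2), so both had the direction they had under control ASO. Their interactions were 0.45 (adjusted p = 0.278) and 0.25 (adjusted p = 0.457).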

How the data were processed

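Whole-liver RNA of 19 mouse samples was extracted with a Qiagen kit and sequenced from standard Illumina libraries, per the labels' protocols. The authors deposited raw read counts per gene and an FPKM table. HISAT2 2.0.2, Subread, Cuffdiff 2.2.1, edgeR, FastQC and the mm10/GRCm38 build are listed in the submitters' processing notes. Not given in the sources used here are the annotation, the strand setting and the scaling of the deposited FPKM values.

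Columns were mapped to samples by the names in the labels, and none was left over. Counts of the 13293 genes that passed filterByExpr (minimum count 10, by group) were scaled by TMM and tested with edgeR 4.0.16 (R 4.3.3), quasi-likelihood, in 1 fit of the 4 groups over 19 libraries, with Benjamini-Hochberg adjustment over all genes and a threshold of 0.05. The 5 contrasts were PLIN5 against control ASO in each feeding state, re-feeding under each ASO, and the interaction of both. Contrasts that share a group share its libraries. CPM use TMM-scaled library sizes. Alternatives used DESeq2 1.42.0, limma 3.58.1 on log2(FPKM + 1) or log2(FPKM + 0.1), other filters and scaling, left-out libraries, a replicate block and removal of a length trend over 25 bins. The fit was tested on simulated counts. Loci and transcript lengths came from GENCODE M21 (GRCm38). The biological coefficient of variation was 19.3%.

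The genes and lists were chosen with earlier results of these data known. Values per library or group are given for genes called in any contrast, for the 2 with the smallest unadjusted p per role, and for Ulk1, Becn1, Atg7 and Tfeb. Vmp1, Atg12, Atg3 and the clock-related genes were added by their ranges after their values were seen. Of other autophagy genes, at most the 4 called with the smallest p per contrast are named.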

Additional observations from a re-analysis of the deposited data

Results flagged for a closer look

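Among the 144 combinations of gene and group, 5 held a library that stood apart from the others of its group by Dixon's criterion, and chance flags about 1 in 20. Ulk1 was at 69.1 CPM in fasted PLIN5 ASO 4, below the 71.7 to 72.3 of the other 4 livers, a small gap in a group of very narrow spread. Becn1 was at 35.6 CPM in re-fed control ASO 4, against 39.6 to 40.6. Pik3c3 was at 9.6 CPM in re-fed PLIN5 ASO 2, against 13.1 to 14.3. Atg16l1 was at 49.5 CPM in fasted control ASO 5, against 35.6 to 37.4. Tfeb was at 14.7 CPM in re-fed PLIN5 ASO 2, against 7.94 to 9.7, and that liver therefore gave the low value for Pik3c3 and the high value for Tfeb.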

How the results depend on the processing

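Over 31 alternatives (30 for the interaction), Ulk1, Atg4d, Atg16l2, Wdr45 and Vamp8 kept their calls for re-feeding under control ASO, and Ulk1 under PLIN5 ASO. Epg5 lost its call in 7 and Atg4c in 11, in both cases also with fasted control ASO 3 and 4 joined as 1 sample. The number of the 36 genes called stayed at 0 in fasted liver and for the interaction. Leaving out single libraries gave 0 to 1 in re-fed liver, 5 to 8 for re-feeding under control ASO and 1 to 2 under PLIN5 ASO, and leaving out the 4 clock-shifted libraries together gave 3 under PLIN5 ASO.

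The counts over all genes moved more. For PLIN5 ASO in fasted liver (156), they were 22 to 188 without single libraries, 427 by DESeq2, 33 with fasted control ASO 3 and 4 as 1 sample and 70 by limma on FPKM without a filter. In re-fed liver (183), they were 45 to 341 without single libraries, 620 by DESeq2, 4 with the 2 groups fitted alone, 45 without the clock-shifted libraries and 48 with the length trend taken out. For re-feeding under control ASO (1759) they were 1112 to 2014, 1127 with livers 3 and 4 joined and 1167 without the clock-shifted libraries, and under PLIN5 ASO (1148) 741 to 1232. For the interaction (3) they were 0 to 3, 95 by DESeq2 and 0 with no filter, with livers 3 and 4 joined, with the length trend taken out or by limma on FPKM with a pseudocount of 1 or 0.1. The cause was not tested. The median log2 fold change of the 36 genes was 0.05687 in fasted liver and 0.04299 for re-feeding under control ASO by limma with a pseudocount of 0.1, and 0.02843 for the interaction with the length trend taken out.

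Small log2 fold changes turned sign: Becn1 in fasted liver to 0.02207 without the clock-shifted libraries, 0.0502 by limma on FPKM (0.05201 with a pseudocount of 0.1) and -0.0599 to 0.001344 without single libraries; Becn1 for re-feeding under control ASO to 0.05068 (0.05253) and -0.04625 to 0.0194. In re-fed liver without the clock-shifted libraries, Ulk1 went to -0.01754, Atg7 to 0.03427 and Tfeb to -0.08273, and without single libraries Atg7 ranged from -0.04722 to 0.01619 and Tfeb from -0.09331 to 0.1462. Atg7 for re-feeding under PLIN5 ASO ranged from -0.09097 to 0.005716.

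Replicate numbers do not pair the samples by the labels. Deviations from group means had a median correlation of 0.0589 for same-numbered libraries (27 pairs, -0.197 to 0.354) and -0.0148 for others (108 pairs), and 5 of 19 libraries correlated best with one of their own number. With the replicate block, all-gene counts were 253 and 290 for the ASO in fasted and re-fed liver and 1 for the interaction, and the 36 genes gave 0, 0, 9, 1 and 0 calls in the order above, adding Bnip3 and Wipi1 for re-feeding under control ASO. The 9 calls are given without a share of their own. Over all genes that comparison had 1759 calls in the main fit. It had 1127 to 2250 over the alternatives other than single left-out libraries, the block among them. Depth limited Atg4a most, with as few as 7 counts in a library.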
